A study of Mus musculus with 2 samples.

Results

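Chemokines are small secreted proteins that guide leukocytes along concentration gradients, and they act through G-protein-coupled receptors on the cells that move. They are named CC, CXC, XC or CX3C by the spacing of their first cysteines. In tumours they are known for drawing in monocytes, neutrophils and lymphocytes, and fibroblasts, endothelial cells and macrophages can all secrete them. The genes described here are the inflammatory chemokines and chemokine receptors of a mouse expression array. They were chosen by name only: array genes called Ccl, Cxcl, Ccr, Cxcr, Xcl or Xcr with a number, plus Cx3cl1, Cx3cr1, Il8rb and Pf4. The lymphoid-organ chemokine genes Cxcl13, Ccl19 and Ccl21 and the receptor genes Cxcr5 and Ccr7 were left out. The name Pf4 did not occur, since the array lists that gene as Cxcl4. The rule gave 48 genes among 28786 genes or transcripts on the array, namely 32 ligands and 16 receptors, with 73 spots of 64 probes. Of the genes, 33 had 1 probe and 15 had several. The array names 4 of them by older names: Il8rb is Cxcr2, Cxcl4 is Pf4, Cxcl7 is Ppbp and Ccl27 is Ccl27a.

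The samples are 2 tumours of 1 group, called tumour 1 and tumour 2, each on its own single-colour (Cy3) Agilent array. Each came from 1000000 cells of RMS3, labelled a PRMS cell line, injected under the skin of a male C57BL/6J mouse in 200 µl of PBS and harvested after 2 weeks. The host strain, sex, line and time are the same for both, the animals' age is not stated, and the protocol text calls the harvested tumours metastatic. RMS3 is a single line, and the line and the host are both mouse, so the arrays cannot separate chemokine RNA of the injected cells from that of host cells. The labels name no untreated or uninjected sample, so the comparison is tumour 1 against tumour 2. With 1 tumour on each side a difference has no replicate check and no p-value. All 6 muscle lineage markers listed were above background in both tumours. Of these, 4 lay higher in tumour 2, Des at -1.24, Myh3 at -1.07 and Myog at -0.13 among them (log2, tumour 1 minus tumour 2). Myod1 at 0.35 and Myf6 at 0.48 lay higher in tumour 1. The summed linear level of all 6 was 0.93 in tumour 1 and 1.49 in tumour 2, and their part in the chemokine values was not tested.

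Levels are processed signals divided by the 75th percentile of the array and put on a log2 scale, differences are tumour 1 minus tumour 2, and signals are the deposited intensities. Signals of different probes are not comparable, so no gene is ranked against another. The array of tumour 1 carried bands of spots marked as outliers by the scanner software, 1128 in all against 69 on the array of tumour 2, and unflagged spots beside the bands were often dim. Values are therefore taken from spots more than 2 rows and columns away from a flag. Such a spot existed for 38 of the 48 genes, and the values of others from spots near flags are marked as such. The share of spots well above background was 62.3% on array 1 and 66.1% on array 2. Away from flags, repeat spots of a probe had a standard deviation of 0.23 on array 1 and 0.13 on array 2 (log2), or 0.26 for a difference of 2 single spots. This is error within an array. It holds none of the spread between animals.

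**Figure D1:**
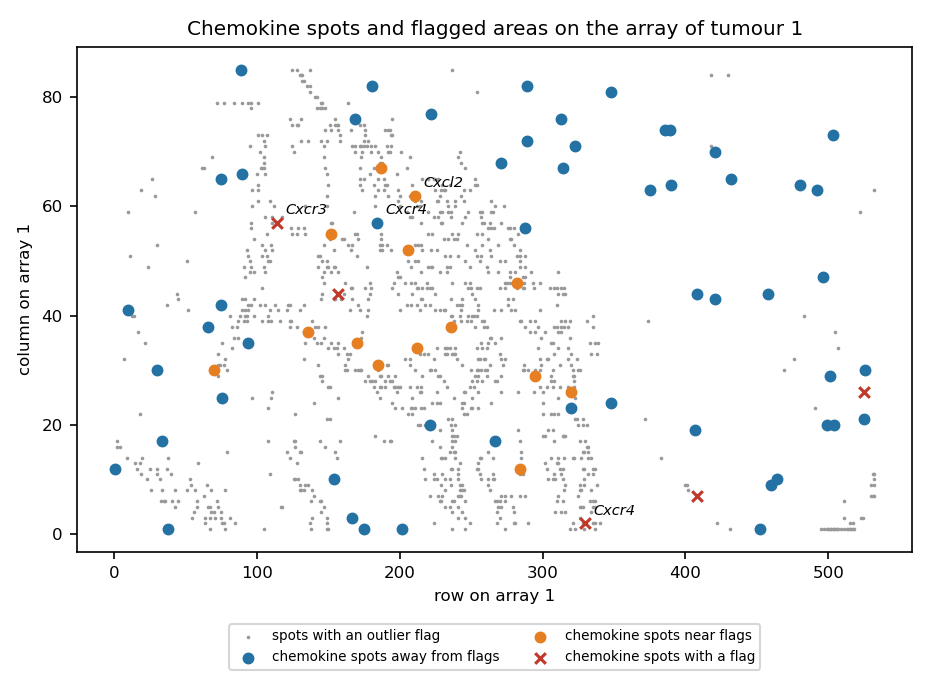
Position of the 73 chemokine spots by row (x axis) and column (y axis) on the array of tumour 1, with the 1128 spots that carry an outlier flag in grey. Chemokine spots away from flags are blue, spots within 2 rows and columns of a flag are orange, and flagged ones are crosses. The spot of Cxcl2 and both spots of Cxcr4 lie in or beside the flagged bands.

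Promoters are shown for some of the members that lay apart in the tumours or stand for a known induction route, so that the letters can be set beside the values given further on. Many inflammatory chemokine genes are known targets of NF-kappaB, which binds kappaB motifs, and some are induced by interferons through the elements named ISRE and GAS. Promoter sequences from 250 bases before to 50 after the start site were taken from RefSeq (GRCm38.p6), with 41 sequences for 37 of the 48 genes. The letters searched on both strands were, for kappaB, GGG and TTTCC with any 2 bases between, for ISRE, GAAA and GAAA with any 2 bases between, and for GAS, TTC and GAA with any 3 bases between. Capitals mark the matches, which are kappaB in Ccl20, Cxcl1 and Cxcl2 and ISRE in Cxcl10. Ccl8 held no match to these letters. Nor did the promoter of Cxcr4, which is not shown. For Cxcl5 and Ccl11 no promoter sequence was available.
Ccl20, chr1:83116516-83116815, plus strand: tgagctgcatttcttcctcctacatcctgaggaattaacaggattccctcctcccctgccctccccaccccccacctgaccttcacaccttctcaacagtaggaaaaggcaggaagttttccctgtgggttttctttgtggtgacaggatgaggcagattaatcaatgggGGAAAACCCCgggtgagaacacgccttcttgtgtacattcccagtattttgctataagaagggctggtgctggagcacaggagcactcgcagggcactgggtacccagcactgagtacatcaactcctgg
Cxcl1, chr5:90890995-90891294, plus strand: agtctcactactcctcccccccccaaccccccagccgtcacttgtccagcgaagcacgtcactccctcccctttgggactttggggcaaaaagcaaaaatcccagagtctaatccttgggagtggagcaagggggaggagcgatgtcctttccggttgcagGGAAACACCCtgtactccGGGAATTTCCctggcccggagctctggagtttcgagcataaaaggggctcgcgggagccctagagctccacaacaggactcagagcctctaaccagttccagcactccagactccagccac
Cxcl2, chr5:90903649-90903948, plus strand: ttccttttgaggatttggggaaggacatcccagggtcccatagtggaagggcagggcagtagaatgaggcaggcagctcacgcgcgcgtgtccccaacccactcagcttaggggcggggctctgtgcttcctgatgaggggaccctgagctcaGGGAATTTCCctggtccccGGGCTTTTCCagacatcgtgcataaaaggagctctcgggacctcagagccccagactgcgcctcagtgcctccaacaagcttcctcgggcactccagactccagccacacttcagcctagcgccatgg
Ccl8, chr11:82114935-82115234, plus strand: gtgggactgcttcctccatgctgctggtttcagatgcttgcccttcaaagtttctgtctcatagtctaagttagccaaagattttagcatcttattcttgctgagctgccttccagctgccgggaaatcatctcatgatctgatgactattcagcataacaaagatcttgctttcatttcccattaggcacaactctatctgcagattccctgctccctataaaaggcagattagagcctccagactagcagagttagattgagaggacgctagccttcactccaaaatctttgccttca
Cxcl10, chr5:92348840-92349139, minus strand: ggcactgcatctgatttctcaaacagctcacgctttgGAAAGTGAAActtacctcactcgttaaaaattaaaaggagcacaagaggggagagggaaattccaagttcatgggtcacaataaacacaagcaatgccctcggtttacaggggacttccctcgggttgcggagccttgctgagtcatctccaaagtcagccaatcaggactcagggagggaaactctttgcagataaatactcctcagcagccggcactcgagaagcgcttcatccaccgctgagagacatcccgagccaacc

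The kappaB letters occurred in 5 of the 41 chemokine promoters (12.2%), against 1.61% of all 32544 promoters of the same length. Cxcl1 and Cxcl2, neighbouring genes for neutrophil attractants, each held 2 matches, beginning 89 and 71 bases before the start site in Cxcl1 and 97 and 78 bases before it in Cxcl2. Ccl20 held 1 match, beginning 80 bases before the start, and Ccl9 and Ccr3 held 1 each. The ISRE letters occurred in 4.88% of chemokine promoters, those of Cxcl10 and Cxcl14, against 3.45% of all. The GAS letters occurred in 9.76%, against 8.33% of all. A match describes letters and not binding, and no match says only that these letters are not in the window.

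Inflammatory chemokine genes were above background in both tumours about as often as genes at large. Away from flags, 25 of 38 genes (65.8%) were above background on both arrays, against 61.2% of all 22780 genes or transcripts with such a spot and 70.0% of those with a gene symbol. They were 19 of 27 ligands and 6 of 11 receptors, and the difference between ligands and receptors was not tested. In bulk tumour RNA, fewer cells of a type and less RNA per cell cannot be told apart.

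**Figure D2:**
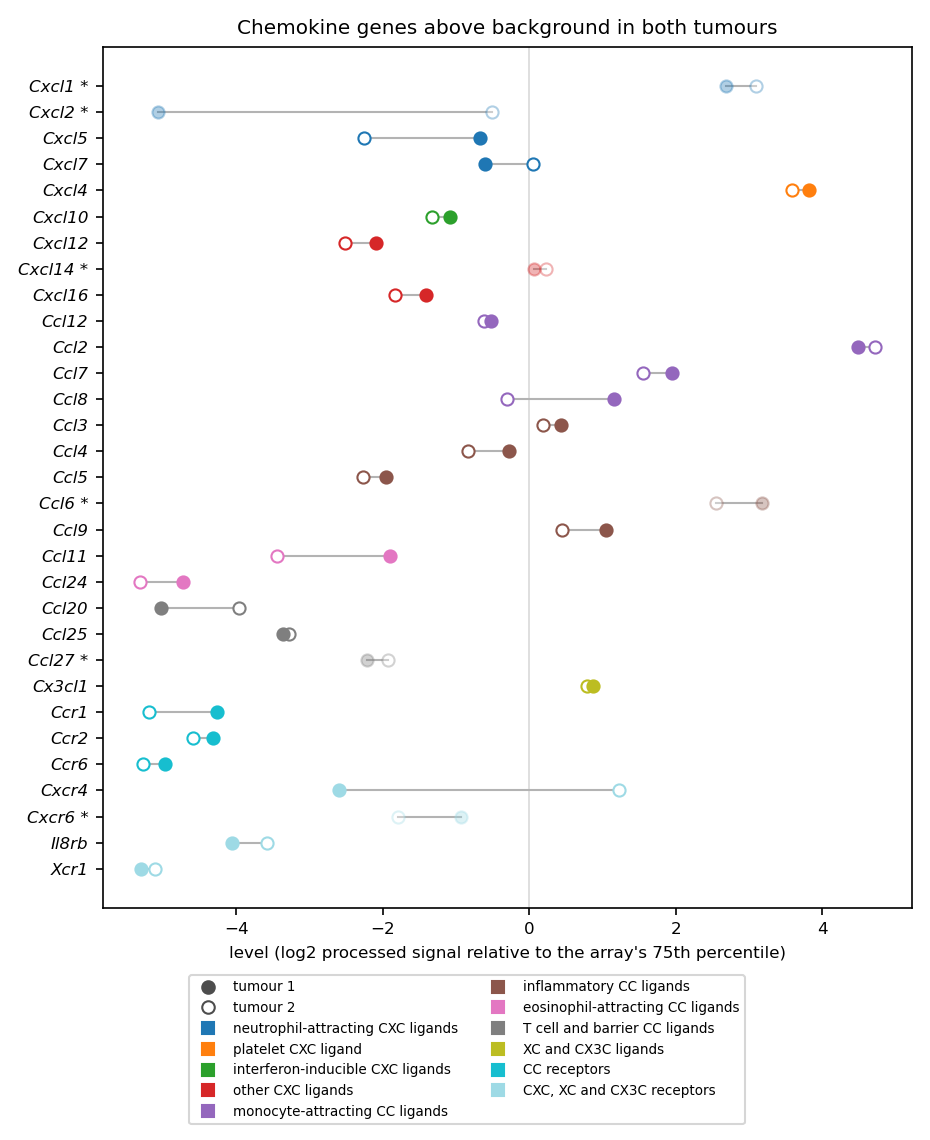
Level of 31 of the 32 genes that were, by spots away from or near flags, above background in both tumours (x axis, log2 relative to the 75th percentile of the array), with filled points for tumour 1 and open points for tumour 2, coloured by role. Pale points and asterisks mark the 6 drawn genes measured only near flags. Cxcl2 and Cxcr4 have the widest gaps, and most filled points lie to the right of their open partner.

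Among the 25 measured genes most lay slightly higher in tumour 1. In all, 19 genes (76%) were higher in tumour 1 and 6 in tumour 2, while 51.6% of all 13945 measured genes were higher in tumour 1. The median difference was 0.26, against 0.01 for all genes, whose middle 50% ran from -0.25 to 0.29. At least 2-fold higher in tumour 1 were 3 genes (12%), Cxcl5, Ccl11 and Ccl8, against 3.87% of all genes. At least 2-fold higher in tumour 2 were 2 genes (8%), Cxcr4 and Ccl20, against 2.59% of all genes. The other 20 lay between -0.66 and 0.91.

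With all unflagged spots, those beside flags included, the members differed less from all genes in how many lay higher in tumour 1. Then 32 of 47 members were above background on both arrays, against 59.2% of all genes and 68.7% of those with a symbol. Of the 32, 24 (75%) lay higher in tumour 1, where it was 76% away from flags. Of all genes 68.2% did, where it was 51.6% away from flags, and their median difference was 0.21. At least 2-fold higher in tumour 1 were 6, Ccr1 and Cxcr6 among those added, against 6.86% of all genes. At least 2-fold higher in tumour 2 were 3, Cxcr4, Cxcl2 and Ccl5, against 5.05% of all genes. The values that follow are from spots away from flags unless stated.

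Dim genes scatter more: 11.2% of all genes with a mean level under -4 were at least 2-fold apart either way, against 2.46% of those with a mean level above 0. For genes with a mean level from -4 to 0 it was 8.09%. Ccl20 is 1 of 6 members in the dim class, and Ccl8 1 of 7 in the bright class. The class between them holds 12 members, of which 3 were past 2-fold, Cxcl5, Ccl11 and Cxcr4.

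**Figure D3:**
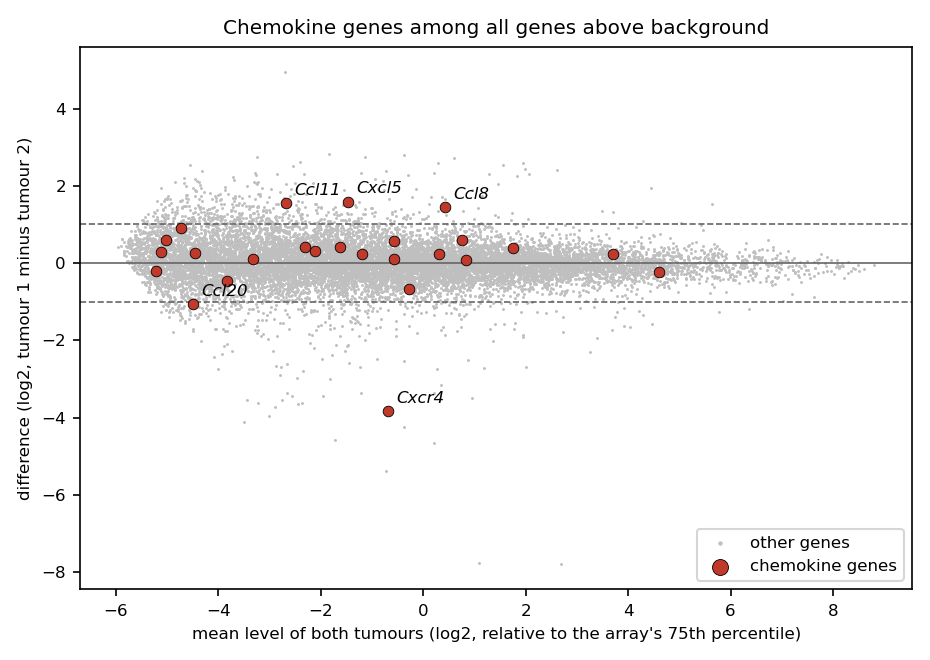
Difference between the tumours (y axis, log2, tumour 1 minus tumour 2) against the mean level of both (x axis, log2) for all 13945 measured genes in grey and the 25 measured chemokine genes in red. Dashed lines mark 2-fold. Cxcl5, Ccl11 and Ccl8 lie above the upper line, Ccl20 just below the lower line and Cxcr4 far below it.

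The neutrophil-attracting CXC ligands, which act through Cxcr2 (Il8rb on the array), did not go one way. Cxcl5, known for neutrophil recruitment, gave a signal of 625 in tumour 1 and 188.6 in tumour 2. Its level was -0.67 in tumour 1 and -2.26 in tumour 2, so the gap was 1.59 (3.004-fold), and the spots around it had a median difference of -0.02. Cxcl7, the platelet basic protein whose cleaved form attracts neutrophils, gave 652 in tumour 1 and 936.6 in tumour 2, differing by -0.66. Cxcl1, the mouse counterpart of the GRO chemokines, was bright in both tumours, with 6430 in tumour 1 and 7711 in tumour 2. Its only spot lay beside a flag and differed by -0.40, while the spots around it had a median of 0.06. Cxcl2 gave 29.6 in tumour 1 and 632.9 in tumour 2, differing by -4.56, also from a spot beside a flag. Of the spots around it, 47.9% were at least 2-fold lower in tumour 1, and their part in this value was not tested. Cxcl15, an epithelial attractant of neutrophils, was above background in neither.

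Il8rb itself had 1 probe away from flags, with 59.9 in tumour 1 and 75.3 in tumour 2, differing by -0.47. Its other probe, near a flag, gave 104 in tumour 1 and 271.8 in tumour 2. Neutrophil markers lay on the side of Il8rb and Cxcl7 and not on that of Cxcl5. All 4 measured of 8 on the array had higher levels in tumour 2 (median -0.55). Their summed level on a linear scale was 68.4 in tumour 1 and 89.2 in tumour 2, with S100a8 at -0.47, S100a9 at -0.36 and the receptor gene Csf3r at -0.80. Elane was above background in neither tumour. The part of these markers in the chemokine values was not tested.

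Cxcl4, platelet factor 4, was bright in both tumours, with 14000 in tumour 1 and 10852 in tumour 2. The difference of 0.23 was smaller than the standard deviation of 0.26 for single spots. It marks platelets and megakaryocytes and is also made by some macrophages.

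The monocyte-attracting CC ligands were all above background, and Ccl8 alone was past 2-fold among these 4. Ccl8, which acts through Ccr8 in the mouse, gave 2210 in tumour 1 and 730.5 in tumour 2. Its level was 1.15 in tumour 1 and -0.30 in tumour 2, a gap of 1.46 (2.74-fold), while the 72 spots around it had a median difference of 0.03. Ccl7, a ligand of Ccr1 and Ccr2, was measured by 2 probes that went the same way, at 0.42 and 0.36. These gave 4460 and 3280 in tumour 1, against 3031 and 2320.5 in tumour 2. Ccl12, a mouse ligand of Ccr2, gave 692 in tumour 1 and 587 in tumour 2, differing by 0.10.

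Ccl2, the main ligand of Ccr2, was printed 10 times and gives the most precise value. Its 6 spots away from flags ranged from 20500 over a median of 22100 to 24500 in tumour 1. In tumour 2 they ranged from 22336 over 23892 to 25077. All 6 had a lower level in tumour 1, with a difference of -0.24 ± 0.04 (mean ± SD of 6 spots on 1 array pair, 1.18-fold). With all unflagged spots, which adds a spot and moves the scale, the difference was 0.01. This SD covers the printing and hybridisation of 1 RNA sample, not animals. Of its 3 flagged spots, 1 gave 12700 in tumour 1 against 26327 in tumour 2. The others gave 21800 and 22100 in tumour 1, against 23911 and 24407 in tumour 2.

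The inflammatory CC ligands Ccl3, Ccl4, Ccl5, Ccl6 and Ccl9 were all above background in both tumours. The 4 with a spot away from flags all lay higher in tumour 1 (median 0.44), and none reached 2-fold. Ccl3 and Ccl4, the macrophage inflammatory proteins 1 alpha and beta, gave 1340 and 820 in tumour 1, against 1032 and 503.7 in tumour 2. Their differences were 0.24 and 0.56. Ccl9, a myeloid ligand of Ccr1 found in rodents, gave 2060 in tumour 1 and 1232 in tumour 2, differing by 0.60. Ccl6, its rodent relative, was bright, with 8960 in tumour 1 and 5258 in tumour 2. It differed by 0.63, from a spot beside a flag whose neighbours had a median of -0.09.

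The probes of Ccl5, which attracts T cells and monocytes, disagreed. The probe away from flags gave 257 in tumour 1 and 186.8 in tumour 2, differing by 0.32. The probe beside a flag gave 29.5 in tumour 1 and 697.1 in tumour 2, with 51.6% of its neighbours at least 2-fold lower in tumour 1. With all unflagged spots the gene's difference therefore came to -1.97, and the direction of Ccl5 rests on which spots are used.

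Markers of macrophages, which make and respond to many CC ligands, were nearly level. Of 9 measured of 11 on the array, 5 were higher in tumour 1 and 4 in tumour 2, with a median of 0.03. Their summed linear level was 13.5 in tumour 1 and 12.5 in tumour 2, with Adgre1 at 0.64 and Cd68 at -0.22. The scavenger receptor Marco was the marker past 2-fold, at 1.22. Fibroblasts are another known source of CC chemokines, and their 5 measured markers all lay higher in tumour 1, Dcn by 1.12 and Mfap5 by 1.95. Their summed linear level was 12.6 in tumour 1 and 8.26 in tumour 2. Of 6 endothelial markers, 5 lay higher in tumour 1, and the summed level was 3.92 in tumour 1 and 2.40 in tumour 2. How far either set bears on Ccl8, Ccl11 or Cxcl5 was not tested.

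The eosinophil attractants were both higher in tumour 1. Ccl11, or eotaxin, gave 267 in tumour 1 and 82.7 in tumour 2. Its level was -1.90 in tumour 1 and -3.45 in tumour 2, a gap of 1.55 (2.93-fold), and its neighbours had a median of -0.11. Ccl24 (eotaxin 2) gave 37.7 in tumour 1 and 22.6 in tumour 2 by 1 probe, differing by 0.59, while its other probe was above background in neither. Their receptor gene Ccr3 was above background in neither tumour by both of its probes. The eosinophil gene Epx was not above background either. Among the eosinophil and mast cell markers, 3 of 4 measured were higher in tumour 2, led by the mast cell carboxypeptidase Cpa3 at -1.02. Their summed linear level was 0.31 in tumour 1 and 0.43 in tumour 2, and their part was not tested.

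Among the ligands for T cells and barrier tissues, Ccl20 lay past 2-fold in favour of tumour 2, and Ccl25 was the other one measured away from flags. Ccl20, the ligand of Ccr6, gave 30.7 in tumour 1 and 58.2 in tumour 2. Its level was -5.02 in tumour 1 and -3.95 in tumour 2, a gap of -1.07 (2.09-fold). In tumour 1 this lies close to the lowest level called above background, -5.78, and with normexp background correction the difference was -0.41. Keratinocytes are known to make Ccl20, and both of their measured markers lay higher in tumour 2, Krt5 at -3.55 and Krt14 at -3.64. Of the other markers listed, Krt1 was above background in tumour 1 only and Krt10 in tumour 2 only. Krt15 had no usable spot away from flags. The summed linear level of Krt5 and Krt14 was 0.079 in tumour 1 and 0.97 in tumour 2, and their part was not tested.

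Ccl25, a ligand made in thymus and gut, had 3 probes that ranged from -0.08 to 1.24. The probe of the median difference, 0.11, gave 2800 in tumour 1 and 2345 in tumour 2. The others gave 96.8 and 67.3 in tumour 1, against 92.7 and 25.7 in tumour 2, so only the last of these was past 2-fold. Less the median of its neighbouring spots, the difference of Ccl25 was 0.70. Ccl27, a skin chemokine with near-identical gene copies that the array may not separate, gave 214 in tumour 1 and 238.2 in tumour 2 beside a flag. Ccl17, a ligand of Ccr4, was called above background in tumour 2 only, at 19.7 in tumour 1 and 18.97 in tumour 2, so the call marks no gap. Ccl1, Ccl22 and Ccl28 were above background in neither tumour.

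The interferon-inducible CXC ligands, which draw in T and NK cells through Cxcr3, were mostly dim. Cxcl10 gave 471 in tumour 1 and 361.1 in tumour 2, differing by 0.24. Cxcl9 gave 20.1 in tumour 1 and 7.28 in tumour 2, where it was not well above background. It was at least 1.63-fold higher in tumour 1, a bound set by the lowest level called on array 2. Cxcl11 was above background in neither tumour. Of the 9 genes listed for the interferon route, 6 were measured, none past 2-fold. Of these, 5 lay higher in tumour 1, the factor Irf1 by 0.77, while Irf8 lay higher in tumour 2, at -0.65. The list's median of 0.31 compares with 0.01 for all genes. Ifng, the inducer itself, was above background in neither tumour.

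The remaining measured ligands lay within 2-fold. Cxcl12, the ligand of Cxcr4 made by stromal cells, had 2 probes at 0.34 and 0.50. They gave 381 and 143 in tumour 1, against 273.3 and 91.8 in tumour 2. Cxcl16, a membrane-bound ligand of Cxcr6, had 2 probes, at 0.14 and 0.71, which gave 254 and 550 in tumour 1, against 209.6 and 304.3 in tumour 2. Cx3cl1, or fractalkine, a membrane-bound adhesion ligand, gave 1820 in tumour 1 and 1556 in tumour 2 by 1 probe. This differed by 0.08, or by 0.44 less the median of its neighbouring spots. The other Cx3cl1 probe, near a flag, was above background in neither tumour. Cxcl14, a stromal and epithelial chemokine, gave 1040 in tumour 1 and 1057 in tumour 2 beside a flag. Xcl1, which cytotoxic lymphocytes secrete, was above background in neither tumour.

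Of the CC receptor genes, 3 had a measured spot away from flags, and each lay higher in tumour 1 by less than 2-fold. Ccr1, carried by monocytes and neutrophils, gave 51.7 in tumour 1 and 24.9 in tumour 2. Its level was -4.27 in tumour 1 and -5.18 in tumour 2, a gap of 0.91, which ran from 0.22 to 1.14 over the settings tried. Ccr2, the main receptor of inflammatory monocytes, gave 49.8 in tumour 1 and 37.6 in tumour 2, differing by 0.26. Its second probe, made to a cDNA clone, was above background in neither. Ccr6, carried by some T, B and dendritic cells, gave 31.6 in tumour 1 and 23.5 in tumour 2, differing by 0.29.

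Ccr1l1, Ccr3, Ccr4, Ccr8, Ccr9 and Ccr10 were above background in neither tumour, Ccr9 and Ccr10 near flags.

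The values of Cxcr4 depend on the probe. Cxcr4, the receptor of Cxcl12 on leukocytes and many tumour cells, gave 164 in tumour 1 and 2116 in tumour 2 by the probe away from flags. Its level was -2.60 in tumour 1 and 1.23 in tumour 2, a gap of -3.83 (14.2-fold). The spot lies 3 steps from a flag, among neighbours with a median of -0.34, of which 29.4% were at least 2-fold lower in tumour 1. The other probe gave 5400 in tumour 1 and 5209 in tumour 2, close together, but its spot carries a flag on array 1. No spot in the rows below the bands measures Cxcr4, so its difference has no check there.

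Cxcr3, the receptor of activated T and NK cells, had 1 spot, flagged on array 1, with 7580 in tumour 1 and 17028 in tumour 2. It is given as a signal without a difference. Cxcr6, a receptor of resident T cells and NKT cells, gave 521 in tumour 1 and 259.9 in tumour 2 near a flag, differing by 0.86. Xcr1, a marker of cross-presenting dendritic cells, gave 25.2 in tumour 1 and 26.3 in tumour 2 by 1 probe (-0.20, or 0.02 scaled over all unflagged spots) and was not above background by the other. Cx3cr1, the fractalkine receptor of monocytes, gave 21.7 in tumour 1 and 2.72 in tumour 2 by 1 probe. It was at least 1.76-fold higher in tumour 1 by that probe, and above background in neither by the other. The bound rests on 1 spot, whose level of -5.52 in tumour 1 lies close to the lowest called there, -5.78.

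Most T and B cell markers with a usable spot were at background in both tumours. Among all genes or transcripts with such a spot, 61.2% were above background on both arrays. Of the T cell markers 3 of 8 with a usable spot were above background in both tumours, namely Cd8b1, Cd5 and Cd3e. They differed by 0.12, 0.09 and -0.24, with a summed linear level of 0.44 in tumour 1 and 0.41 in tumour 2. Cd8b1 had a log2 level of -1.48 in tumour 1 and -1.60 in tumour 2. Cd4, Cd8a and Foxp3 were at background in both. Among 7 NK and cytotoxic markers with a usable spot, 3 were above background in both tumours, and Klrb1c and Nkg7 in tumour 1 only. All 3 measured NK and cytotoxic markers were higher in tumour 1, Klrd1 at 1.61, with a summed level of 0.14 in tumour 1 and 0.066 in tumour 2. Ncr1, their defining marker, was at background in both. Dendritic cell markers were measured in 2 cases, Itgax at 1.04 and Batf3 at -0.01. Their summed level was 0.49 in tumour 1 and 0.33 in tumour 2. Of the B cell markers 1 of 3 was above background, Cd79b, at a level of 0.032 in tumour 1 and 0.035 in tumour 2. The part of these cells in the receptor values was not tested.

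**Figure D4:**
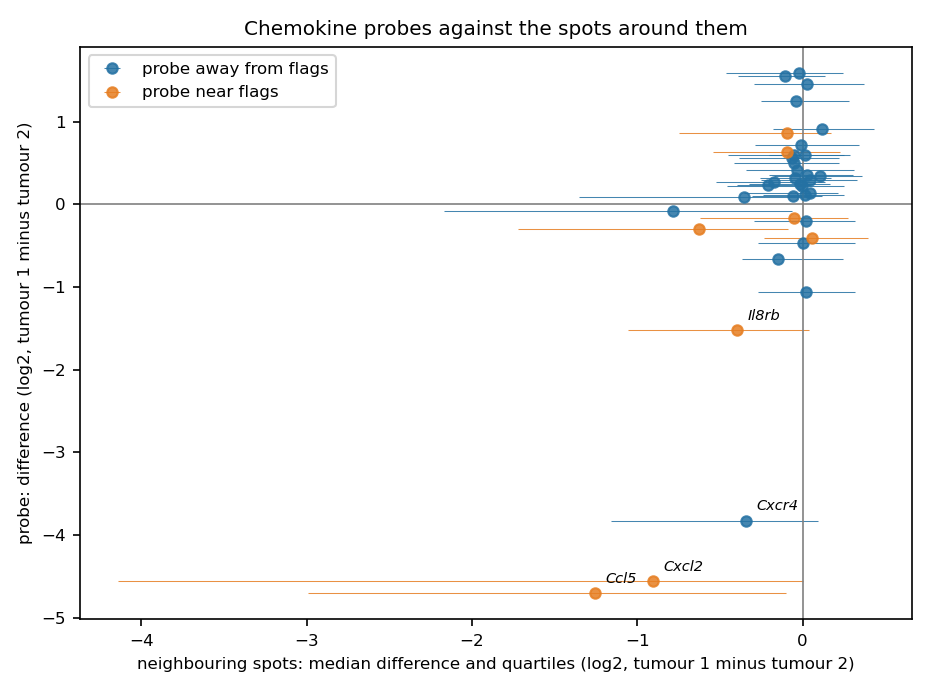
Difference of chemokine probes above background in both tumours (y axis, log2, tumour 1 minus tumour 2) against the median difference of other spots within 5 rows and columns (x axis, log2, bars from the lower to the upper quartile). Probes near flags are orange. The probes of Cxcl2, Ccl5 and Cxcr4 far below 0 stand among neighbours that reach below -1, whereas those above 1 stand among neighbours with medians from -0.11 to 0.03.

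Receptors and ligands were set side by side for 33 known mouse pairs of 15 receptors. Of the 8 receptors above background in both tumours, 7 had at least 1 ligand that was too. Xcr1 was the exception, since Xcl1 was not. Of the 5 receptors above background in neither, 4 had a ligand that was, namely Ccr3, Ccr8, Ccr9 and Ccr10. Of all 32 ligands, 24 were above background in both tumours by spots away from or near flags. Most receptors of either kind would therefore have such a ligand. Ccl8, which differed by 1.46, thus stood beside a receptor gene, Ccr8, with signals of 3.76 in tumour 1 and 5.86 in tumour 2, both at background. In 10 pairs both genes were measured away from flags, and in 6 of these both lay on the same side. Of all 19 ligands measured away from flags 16 lay higher in tumour 1, and of the 6 receptors 3 did. The 6 pairs on the same side are Ccr1 (0.91) with Ccl3, Ccl5, Ccl7 and Ccl9, and Ccr2 (0.26) with Ccl7 and Ccl12. They share receptors and are not independent. The pair list leaves out Il8rb with Cxcl7, which were both measured away from flags and both lay higher in tumour 2 (-0.47 and -0.66). On opposite sides were Ccr6 and Ccl20 (0.29 and -1.07), Il8rb and Cxcl5 (-0.47 and 1.59), Ccr2 and Ccl2 (0.26 and -0.24), and Cxcr4 and Cxcl12 (-3.83 and 0.42).

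Neighbours on the chromosome, by the gene order in RefSeq, lay close together in some sets and apart in others. In the set that runs Ccl2, Ccl7, Ccl11, Ccl12, Ccl8 and Ccl1, the differences were -0.24, 0.39, 1.55, 0.10 and 1.46, with Ccl1 at background. In the set of Ccl5, Ccl9, Ccl6, Ccl3 and Ccl4 all 5 lay between 0.24 and 0.63, Ccl6 at 0.63 from a spot beside a flag. With all unflagged spots Ccl5 left that range, at -1.97. In the CXC set Cxcl5 lay at 1.59, Cxcl7 at -0.66 and Cxcl4 at 0.23, followed by Cxcl15 at background and by Cxcl1 at -0.40 and Cxcl2 at -4.56, both beside flags. Of the receptor set around Ccr1 and Ccr2, 5 of 8 genes were above background in both tumours.

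Other genes of the pathway went partly the other way. Of the NF-kappaB and inflammatory cytokine genes, 6 of 8 measured lay higher in tumour 2 (median -0.37), none past 2-fold. Il1b, which induces neutrophil chemokines, was at -0.45, Il6 at -0.59 and the p65 gene Rela at -0.45. Tnf was above background in neither tumour. Of the 5 genes with kappaB letters in the promoter, Ccl20 was at -1.07 and Ccl9 at 0.60 away from flags. Cxcl1 was at -0.40 and Cxcl2 at -4.56, both beside flags, and Ccr3 was at background. Of the genes that signal below chemokine receptors, 9 of 12 measured lay higher in tumour 2 (median -0.31), none past 2-fold. The 9 include the G-protein subunit Gnai2 (-0.42) and the GTPases Rac1 (-0.49) and Rac2 (-0.38). Among the 3 that lay higher in tumour 1 are the G-protein subunits Gnai3 (0.25) and Gng2 (0.21).

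The atypical chemokine receptors bind chemokines without G-protein signalling and so scavenge or transport them. Ackr1, carried by venules, and Ackr4 were higher in tumour 1 by 0.73 and 0.66, and the related Ccrl2 by 0.46. They were the 3 measured among 7 genes on the array that were listed as atypical receptors and other chemokine genes.

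**Figure D5:**
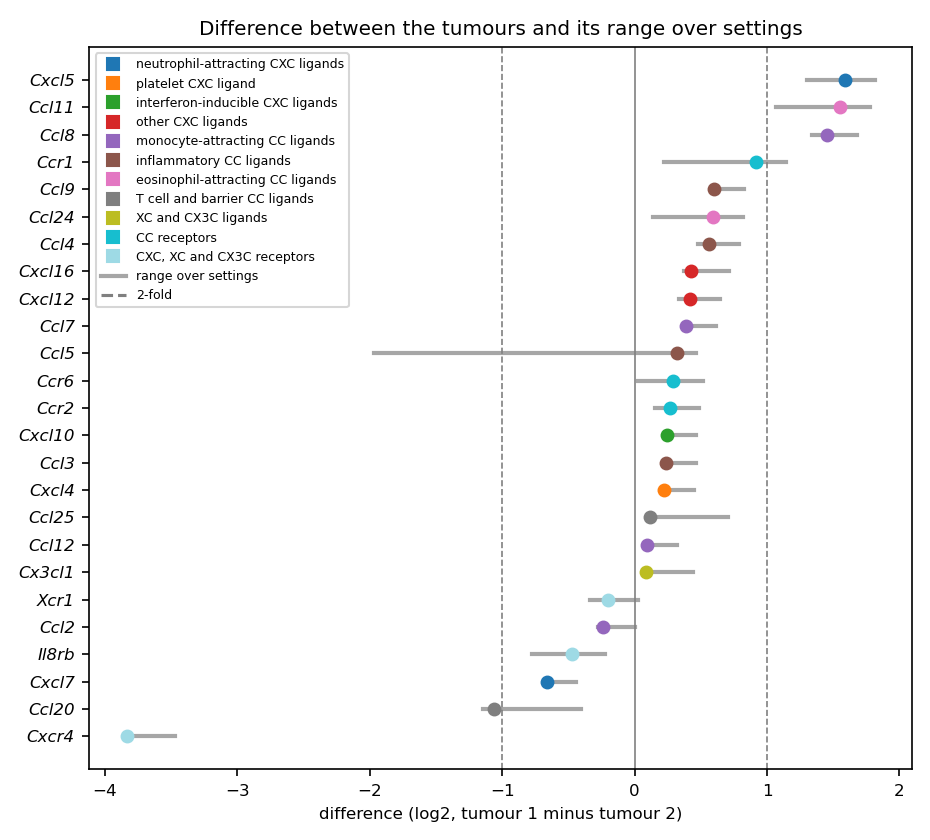
Difference of each of the 25 measured chemokine genes (points, log2, tumour 1 minus tumour 2, coloured by role) with the lowest and highest value over the settings tried (grey bars). Dashed lines mark 2-fold. The bars of Cxcl5, Ccl11 and Ccl8 stay above the upper line, that of Cxcr4 below the lower line, that of Ccl20 crosses it, and that of Ccl5 runs from -1.97 to 0.46.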

How the data were processed

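Total RNA of 2 tumours was extracted with Trizol, and 1.0 µg was labelled with Cy3 by the Quick Amp kit, per the labels' protocols. The scanner files hold deposited intensity values per spot. Per the file headers they were written by Agilent Feature Extraction 9.1.3.1, while the submitters' processing notes name version 8. The deposited value table equals the processed signal intensity at 100% of spots. Signals of tumour 1 are written with at most 3 significant digits. A genome build is not given in the sources used here.

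The processed signal was divided by the 75th percentile of non-control spots (995 on array 1, 901.9 on array 2 away from flags) and put on a log2 scale. Flagged spots, and spots within 2 rows and columns of an array 1 flag or of local background over 100 on array 2, were left out, 27.8% of non-control spots. Repeat spots were averaged. A probe counted as above background when at least 50% of its spots were well above it, and a gene when 1 probe was on both arrays. A gene's difference is the median over such probes. Summed linear levels of a marker list weigh its brightest probes most. Spots near flags are given on the same scale. The text may name every member, and marker and pathway genes that stand among the first 4 of their list or at least 2-fold apart. Others named, such as Elane, Cd8a, Cd8b1, Cd5, Irf1, Irf8, Krt10, Nkg7, Rac1, Rac2, Rela, Foxp3, Batf3 and Ccrl2, were picked after their values were seen. Members, lists and the handling of flags were chosen with earlier results of these data known. No test was run, and the number of arrays limits precision. Alternatives were other background correction (normexp, offset 50), scaling (loess span 0.3), detection calls, probe choice and spot sets. RefSeq symbols (GRCm38.p6) matched accessions of 55.7% of probes. Chromosome neighbours start within 1000000 bases. Python 3.11.15 and R 4.3.3 with limma 3.58.1 were used, and the procedure was tested on simulated data. Those data were built from the signals of array 2, so they do not test the handling of the dim spots on array 1. The values of 1 member and of 1 pathway gene are not reported here, though counts and medians include them.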

Additional observations from a re-analysis of the deposited data

How the results depend on the processing

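Of the 25 measured genes none past 2-fold turned its direction under the 11 alternatives tried. Subtracting the median of neighbouring spots, 1 of these, was added after seeing the data. Cxcl5, Ccl11, Ccl8, Ccl20 and Cxcr4 each rest on 1 usable spot per array. The alternatives rework that same spot, so they give no independent check of its direction. The flagged probe of Cxcr4, with 5400 in tumour 1 and 5209 in tumour 2, enters none of them. Cxcl5, Ccl11 and Ccl8 stayed past 2-fold wherever they were measured, but no spot of these 3 lies in the rows below the flagged bands. The genes above background on both arrays numbered 32 with all unflagged spots, 11 when restricted to rows under the flagged bands, and 29 by the looser call of positive and significant signal, against 25. On 1 array alone they were 26 (without tumour 1) and 27 (without tumour 2). Genes past 2-fold in tumour 1 numbered 6 with all unflagged spots and 0 in the lower rows, against 3. In the lower rows only 11 genes were measured. Genes past 2-fold in tumour 2 numbered 1 with normexp, where Ccl20 dropped to -0.41, 1 with the unscaled value table and 1 in the lower rows, against 2. The median of 0.26 ranged from 0.19 with normexp to 0.46 with all unflagged spots, where the median of all genes was 0.21. With all unflagged spots Ccl5 turned to -1.97, Ccl2 to 0.01 and Xcr1 to 0.02. Less the median of neighbouring spots, Ccl25 was at 0.70 and Cx3cl1 at 0.44. With normexp, Ccl24 was at 0.14, Ccr1 at 0.22 and Ccr6 at 0.02. The cause was not tested. No paired analysis was possible because there is 1 group. Signal over background limits Ccr1, Ccr6, Xcr1, Cx3cr1, Cxcl9 and Ccl24, which lay near the lowest level called.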
